A study of Mus musculus with 4 samples.

Results

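Markers of T cells, natural killer (NK) cells, macrophages and platelets were examined in cloned cells of a plasma cell tumour, every probe set on the array that carries one of these gene symbols being taken. The 10 genes were Gzma, Gzmb, Prf1, Zap70, Lck, Cd8a, Cd3e, Csf1r, Cd68 and Itga2b. The platform annotation gave 18 of the 45037 probe sets to 9 of these genes, out of 18193 genes named on the array, and Lck was not analysed here. The genes were chosen with their signals on these arrays known, so their levels are given as a description and carry no test.

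The cells were 4 clones of J558, an IgA-secreting plasmacytoma line from BALB/c mice. In 2 AID-silenced clones a silencing vector targeted activation-induced cytidine deaminase (AID), the enzyme that starts class switching and somatic hypermutation of immunoglobulin genes. The 2 control clones carried the empty vector, and all 4 clones also carried a neomycin resistance vector and were selected with G418. By their labels the clones form 2 pairs, with 1 AID-silenced and 1 control clone in each. Each sample was 1 clone on 1 Affymetrix Mouse 430 2.0 array, so the spread within a group is between clones and may be clonal or technical.

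T cells read antigen through a receptor whose CD3 chains are phosphorylated by the kinase Lck and then bind the kinase Zap70. Killer T cells, marked by CD8, and NK cells kill by releasing perforin, which opens membranes, and granzymes, serine proteases that enter the target. Macrophages depend on the growth factor receptor encoded by Csf1r and are rich in lysosomal proteins such as CD68, and platelets clot through an integrin whose alpha chain is encoded by Itga2b. Plasma cells belong to the B lineage and use none of these as defining markers.

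The deposited values are MAS5 signals, a linear intensity per probe set. No detection call was used, and background was read from 156 probe sets of gene families that blood cells do not use, the olfactory, vomeronasal and taste receptors, keratin-associated proteins, gamma crystallins and beta defensins. The 95th percentile of these probe sets was 59.3 and 64.5 on the arrays of the AID-silenced clones of pairs 1 and 2, against 47.0 and 53.9 on those of the control clones. A probe set was called above background on an array when its signal was over that array's value. By definition some silent-family probe sets pass this rule. The highest of them reached 271.7 and 133.9 on the arrays of the AID-silenced clones, against 182.7 and 129.4 on those of the control clones. By this rule 42.4% of all probe sets were above background on all 4 arrays, 15.8% on some and 41.8% on none. The plasma cell label fitted its markers, since all 10 measured genes of the plasma cell list were above background on all 4 arrays. Among these, Igha, the heavy chain of IgA, had signals of 41050 and 44408 in the AID-silenced clones of pairs 1 and 2, against 37164 and 51693 in the control clones.

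Of the 18 probe sets, 6 were above background on all 4 arrays, 6 on some and 6 on none. The 6 probe sets above background on all arrays belonged to 6 genes, Gzma, Prf1, Zap70, Csf1r, Cd68 and Itga2b, and 3 genes, Gzmb, Cd8a and Cd3e, had none. At least 1 probe set was above background on all arrays for 50.6% of all genes. All 4 genes with several probe sets, Prf1, Zap70, Cd8a and Csf1r, had probe sets that disagreed, meaning that they fell into different classes, as did 44.4% of all genes with several probe sets.

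**Figure D1:**
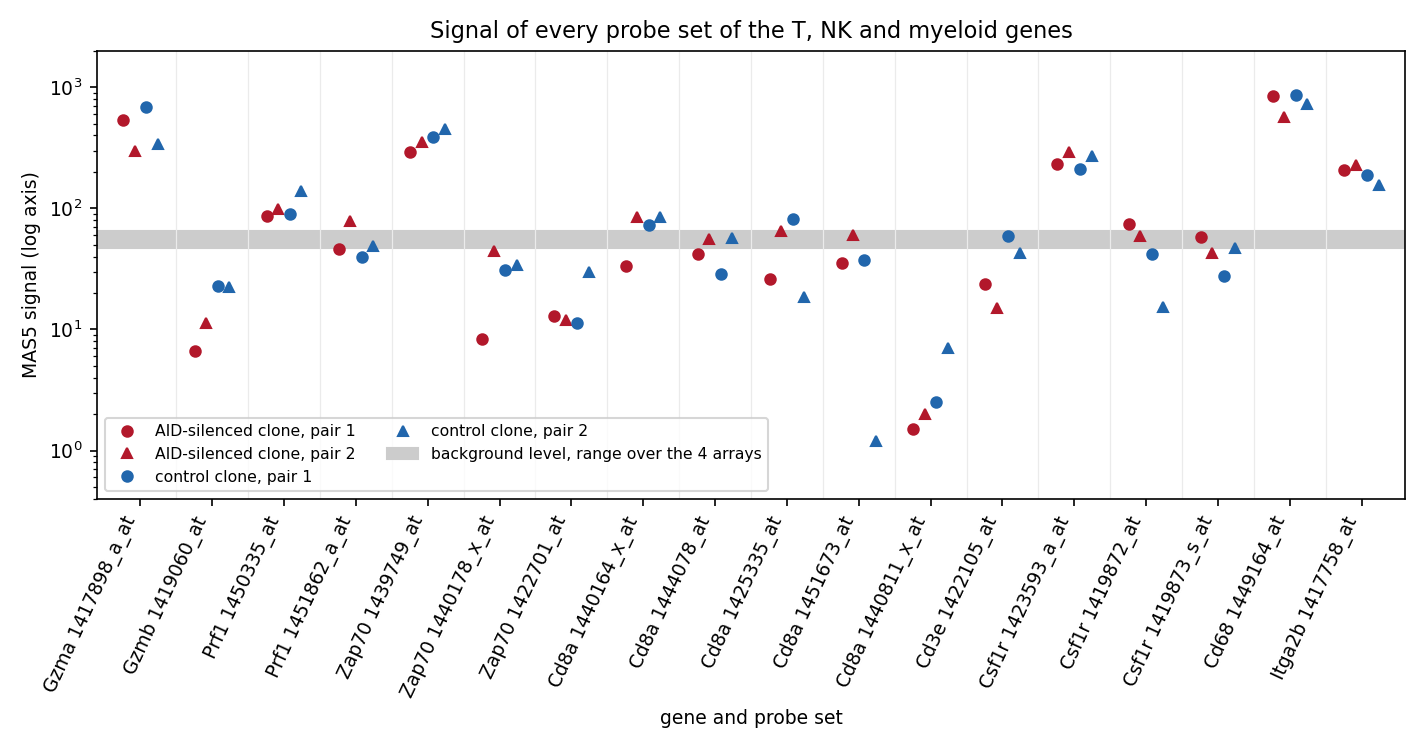
MAS5 signal on a log axis for each of the 18 probe sets, with 1 point per clone (AID-silenced to the left of control, circles for pair 1, triangles for pair 2). The grey band spans the background values of the 4 arrays, 47.0 to 64.5, and 6 probe sets lie wholly above it: Gzma, 1450335_at for Prf1, 1439749_at for Zap70, 1423593_a_at for Csf1r, Cd68 and Itga2b.

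The promoters of 4 of these genes are shown because their transcripts were read differently on the same arrays, Gzma, Cd68 and Itga2b above background on all of them and Gzmb on none. Each sequence is the 250 bases before the RefSeq transcript start, 5′ to 3′ on the gene's strand (GRCm38.p6). The windows are chr13:113100982-113101231, minus strand, for Gzma, chr14:56262335-56262584, minus strand, for Gzmb, chr11:69666171-69666420, minus strand, for Cd68, and chr11:102469884-102470133, minus strand, for Itga2b. Capitals mark GAGGAA, the purine box bound by PU.1 and related Ets factors, and GATA, the core bound by GATA factors. Both were searched as exact strings on both strands, together with TATAAA, a form of the TATA box.
Gzma: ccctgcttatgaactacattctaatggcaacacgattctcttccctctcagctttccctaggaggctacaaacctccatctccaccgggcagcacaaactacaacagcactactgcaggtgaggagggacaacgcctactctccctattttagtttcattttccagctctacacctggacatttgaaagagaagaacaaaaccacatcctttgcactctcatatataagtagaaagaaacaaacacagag
Gzmb: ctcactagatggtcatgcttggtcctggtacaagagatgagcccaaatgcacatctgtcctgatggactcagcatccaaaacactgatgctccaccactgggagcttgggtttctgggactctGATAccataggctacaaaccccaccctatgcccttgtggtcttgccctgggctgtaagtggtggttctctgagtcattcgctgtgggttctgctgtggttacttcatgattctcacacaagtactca
Cd68: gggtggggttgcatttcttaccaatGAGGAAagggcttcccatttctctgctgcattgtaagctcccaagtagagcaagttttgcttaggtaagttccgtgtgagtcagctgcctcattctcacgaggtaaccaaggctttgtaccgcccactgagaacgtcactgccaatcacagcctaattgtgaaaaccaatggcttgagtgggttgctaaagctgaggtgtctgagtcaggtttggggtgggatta
Itga2b: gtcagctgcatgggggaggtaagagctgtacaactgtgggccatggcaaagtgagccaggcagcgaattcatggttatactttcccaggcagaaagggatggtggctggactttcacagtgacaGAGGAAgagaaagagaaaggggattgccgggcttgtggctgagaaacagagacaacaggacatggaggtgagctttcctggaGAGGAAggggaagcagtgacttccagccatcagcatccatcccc
The Cd68 window held 1 GAGGAA, starting 225 bases before the transcript start, and the Itga2b window held 2, at 126 and 44 bases. The Gzmb window held 1 GATA, at 127 bases, and the Gzma window held no exact match to the 3 motifs, none of these matches overlapping another. Near forms, such as tatataag close to the end of the Gzma window, were not searched for, so a promoter without a match may still hold one. Of 32851 promoter windows of the same length, 23.3% held GAGGAA, 53.6% GATA and 12.4% TATAAA, so these matches describe the letters and not sites in use.

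The granule genes came first among the cytotoxic markers. Gzma, a trypsin-like protease of killer cell granules, had signals of 538 and 298.9 in the AID-silenced clones of pairs 1 and 2, against 688 and 341 in the control clones. At its single probe set (1417898_a_at) these were 4.63 to 14.6 times background, the groups overlapped, and both clones of pair 1 lay above both clones of pair 2. Gzmb, the protease that cleaves caspases and their substrates, had 6.7 and 11.3 in the AID-silenced clones, against 22.7 and 22.3 in the control clones. Its single probe set (1419060_at) was below background on every array, so the lower AID-silenced signals compare values within the background. The 2 granzymes thus fell on opposite sides of the background value in each of the 4 clones.

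Prf1 encodes perforin, the protein that forms the pore. Its first probe set (1450335_at) had signals of 85.8 and 98.0 in the AID-silenced clones, against 90 and 139 in the control clones. The 4 signals were 1.45 to 2.58 times the background of their arrays, and the groups overlapped. The second probe set (1451862_a_at) had 46.1 and 78.1 in the AID-silenced clones, against 40.0 and 48.6 in the control clones, and only the AID-silenced clone of pair 2 was above background. Among the members above background on all arrays, Prf1 was the one lost when the 99th percentile of the silent families was used, which ranged from 88.5 to 115.3.

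Of the receptor kinases, Zap70 could be read at 3 probe sets, which did not agree. The first (1439749_at) had signals of 289.2 and 350.2 in the AID-silenced clones, against 392 and 455 in the control clones. Both AID-silenced clones lay below both control clones and all 4 were above background. The second (1440178_x_at) had 8.4 and 44.7 in the AID-silenced clones, against 30.9 and 33.8 in the control clones, and the third (1422701_at) 13.0 and 11.9, against 11.4 and 29.9. These 2 probe sets were below background on every array. The ending x_at marks a probe set with probes that can bind other transcripts. Where on the gene the 3 probe sets lie was not analysed here.

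The surface markers of T cells gave no consistent signal. Cd3e, a signalling chain of the T cell receptor complex, had signals of 23.7 and 14.9 in the AID-silenced clones, against 58.7 and 42.6 in the control clones. The groups did not overlap, but only the control clone of pair 1 was above background, at an array value of 47.0. Cd8a, the alpha chain of the CD8 co-receptor, had 5 probe sets, 3 above background on some arrays and 2 on none. Its brightest (1440164_x_at) had 33.6 and 84.4 in the AID-silenced clones, against 72.4 and 85.2 in the control clones, and was the probe set nearest to passing on all arrays, held back by the AID-silenced clone of pair 1. The next (1444078_at) had 42.3 and 55.5 against 28.6 and 56.5 in the control clones, only the control clone of pair 2 being above background. The third (1425335_at) had 26.0 and 64.9 in the AID-silenced clones, against 81.3 and 18.7 in the control clones. The clones above background at the third probe set were thus the AID-silenced clone of pair 2 and the control clone of pair 1, another choice than at the first and second. Some of these calls were close, the 64.9 lying beside an array value of 64.5. At the second probe set the clones of pair 2, at 55.5 and 56.5, were classed apart by array values of 64.5 and 53.9. The fourth (1451673_at) ran from 35.7 to 60.0 in the AID-silenced clones and from 1.2 to 37.3 in the control clones, and the fifth (1440811_x_at) from 1.5 to 2.0 and from 2.5 to 7.0. No clone was above background at more than 2 of the 5 probe sets.

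Of the macrophage genes, Cd68 encodes a glycoprotein of lysosomes and endosomes. It had signals of 841 and 572 in the AID-silenced clones, against 866 and 721 in the control clones, at its single probe set (1449164_at). These were 8.86 to 18.4 times background, and the groups overlapped. Csf1r encodes the receptor for colony stimulating factor 1 and interleukin 34. Its first probe set (1423593_a_at) had 232 and 292.9 in the AID-silenced clones, against 213 and 268 in the control clones. The 4 values lay close together, with both clones of pair 2 above both clones of pair 1. The other probe sets were near background, at 74.6 and 59.2 in the AID-silenced clones against 41.9 and 15.3 in the control clones (1419872_at), and at 58.0 and 42.4 against 27.7 and 47.5 (1419873_s_at). Of these 8 values only the 74.6 of the AID-silenced clone of pair 1 was above background, so 1 of 3 probe sets carried the signal for this gene. An s_at ending marks a probe set shared by transcripts of more than 1 gene.

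Itga2b encodes the alpha IIb chain, which pairs with the beta 3 chain to form the fibrinogen receptor of platelets. It had signals of 209 and 228 in the AID-silenced clones, against 188 and 157 in the control clones, at its single probe set (1417758_at). All 4 were above background, and both AID-silenced clones lay above both control clones. In the AID-silenced clone of pair 1, Itga2b and the first probe set of Csf1r were under the highest silent-family signal, 271.7. On the other arrays both were above the highest such signal. The first probe set of Prf1 was above it only in the control clone of pair 2, at 139.2 beside 129.4. Itgb3, the beta 3 chain, was below background on every array at the brightest of its 2 probe sets, with 44.6 and 11.0 in the AID-silenced clones, against 9.2 and 14.1 in the control clones. In RNA from whole cultures, fewer cells with a transcript and less of it per cell cannot be told apart.

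The design asks whether AID-silenced and control clones differ. Of the 18 probe sets, 8, from 7 genes, were bright enough on average (a mean signal of about 49.4) to enter a limma fit with 22519 probe sets, on log2(signal + 16). None of the 8 passed an adjusted p of 0.05, nor an unadjusted p of 0.05, beside 2 probe sets called among all tested, or 0.00888%, and 787 at an unadjusted p under 0.05. With the pair as a block none of the 8 passed either threshold, beside 8 of all tested probe sets, or 0.0355%. The median log2 difference over the 8 was -0.22, beside 0.01 over all tested probe sets.

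Zap70 was lower in both pairs at its first probe set, by log2 differences of -0.42 and -0.36 in pairs 1 and 2, and by -0.39 ± 0.29 overall (SE, n = 2 per group, limma adjusted p = 0.9996). Itga2b was higher in both pairs, by 0.14 and 0.50, and by 0.32 ± 0.31 overall (SE, n = 2 per group, limma adjusted p = 0.9996). At both probe sets the groups did not overlap, and neither difference passed the limma threshold. The differences were -0.26 ± 0.44 for Gzma, -0.18 ± 0.29 for Cd68 and 0.12 ± 0.31 for Csf1r (SE). The 2 probe sets for Prf1 differed in sign, at -0.25 ± 0.36 and 0.35 ± 0.39. Cd8a differed by -0.42 ± 0.44 at its brightest probe set, and every limma adjusted p among the 8 was 0.9996.

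Over all 18 probe sets, AID-silenced and control signals did not overlap at 6, of which 2 were higher and 4 lower after silencing. Over all probe sets 31.1% did not overlap, 15.5% higher and 15.5% lower, so the members' share was near that of the array. The 2 higher were Itga2b and 1419872_at for Csf1r, and the 4 lower were Gzmb, Cd3e, 1439749_at for Zap70 and 1440811_x_at for Cd8a.

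The pairs were compared in the same blocked fit, a comparison chosen after the data were seen. Gzma was lower in pair 2 than in pair 1 by a log2 difference of -0.90 ± 0.23 (SE, n = 2 per pair, limma adjusted p = 0.18), the same direction holding in the AID-silenced and in the control clones. Cd68 was lower in pair 2 by -0.40 ± 0.22 and Zap70 higher by 0.24 ± 0.24 at its first probe set (SE). None of the 8 probe sets passed the adjusted threshold, beside 0.0178% of all tested probe sets. No member spanned more than 1.27 log2 units over the 4 arrays at its brightest probe set, under the 2 units set for naming genes of a like pattern, so none is named.

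**Figure D2:**
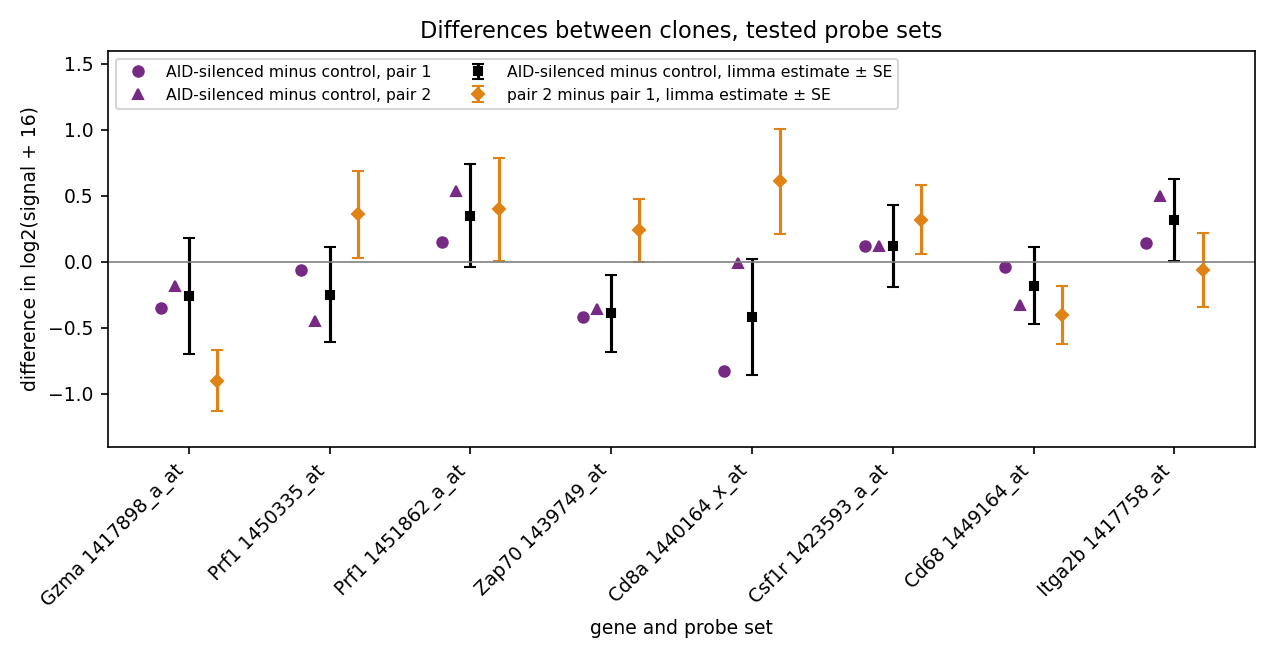
Differences in log2(signal + 16) for the 8 tested probe sets: AID-silenced minus control in each pair (purple), its limma estimate with the SE (black), and pair 2 minus pair 1 with the SE (orange). The AID-silenced against control estimates lie between -0.42 and 0.35, and the one farthest from 0 between pairs is that of Gzma, at -0.90.

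The other genes of the same cell types were read at the brightest probe set of each. In 9 lists of T cell, NK cell, myeloid and platelet genes, 118 genes besides the members were measured, of which 18 were above background on all 4 arrays, 33 on some and 67 on none. By the same measure 50.5% of all genes were above background on all arrays. Of 57 genes of the 12 lists that were bright enough to be tested, members included, 0 passed the limma threshold, with the pair as a block or without it. At an unadjusted limma p under 0.05 there were 3 of the 57, Rasgrp1, Cebpb and Scarb2, named after their values were seen. Over the array, 787 of the 22519 tested probe sets were under that value, so a few such genes in lists of this size carry no result.

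In the T cell receptor complex and co-receptor list, 1 of 12 measured genes was above background on all arrays, 5 on some and 6 on none. The 1 gene was Cd28, a co-stimulatory receptor also carried by plasma cells, with signals of 1902 and 410 in the AID-silenced clones, against 756 and 760 in the control clones. Its second probe set (1417597_at) also set the AID-silenced clones on either side of the control clones, with 2160 and 436 in the AID-silenced clones, against 628 and 627 in the control clones. At both probe sets the AID-silenced clone of pair 1 was the high one and that of pair 2 the low one. Cd6, a receptor for the adhesion molecule ALCAM, had 539.8 and 657.9 in the AID-silenced clones, against 7.5 and 832 in the control clones. The control clone of pair 1 alone was below background for Cd6. The receptor chains Cd3d and Cd247, the co-receptor Cd4 and Thy1 were below background on every array, and the signals of Cd3d ran from 6.3 to 12.1 in the AID-silenced clones and from 2.2 to 2.4 in the control clones.

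In the T cell receptor signalling list, 6 of 17 measured genes were above background on all arrays, and 5 of these besides Zap70 were the kinases Csk, Fyn, Btk and Syk and the ubiquitin ligase Cblb. Syk, which does in B cells what Zap70 does in T cells, had signals of 153 and 145 in the AID-silenced clones, against 121 and 341 in the control clones, at its brightest probe set. Fyn, a Src family kinase, had 4292 and 2693 in the AID-silenced clones, against 6336 and 1021 in the control clones. Rasgrp1, an exchange factor that activates Ras downstream of the T cell receptor, had 192.5 and 264.5 in the AID-silenced clones, against 43.8 and 5.8 in the control clones (log2 difference 2.74 ± 0.53, SE, n = 2 per group, limma adjusted p = 0.778 and 0.326 with the pair as a block). At this probe set (1434295_at) both AID-silenced clones were above background and both control clones below it. The groups were apart in the same direction at its 3 other probe sets, by log2 differences of 1.53 to 1.74, with signals of 54.7 to 114.6 in the AID-silenced clones and 9.0 to 26.7 in the control clones. The difference did not pass the threshold, and its size depends on the pseudocount because the control signals are within the background.

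Of the T cell transcription factors, 0 of 7 measured genes were above background on all arrays, 1 on some and 6 on none. The 1 gene was Tox, with 50.6 and 2.3 in the AID-silenced clones, against 60.2 and 45.1 in the control clones. Only the control clone of pair 1 was above background for Tox, and Gata3, the dimmest of the 7, had at most 2.9 on any array.

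In the cytotoxic granule list, 6 of 23 measured genes were above background on all arrays. Besides Gzma and Prf1 these were Lamp1, Lamp2, Stxbp2 and Rab27a, which serve lysosomes and secretory vesicles in many cell types. Of the granzymes, Gzmm was above background on 3 arrays, with 76.4 and 61.2 in the AID-silenced clones, against 64.1 and 132.0 in the control clones, and Gzma was the only granzyme of the 9 measured above background on all 4. Nkg7, a granule membrane protein of killer cells, was below background on every array. In the NK receptor list 1 of 10 measured genes was above background on all arrays. This was Klrk1, the activating receptor NKG2D, with 1356 and 2104 in the AID-silenced clones, against 215 and 1643 in the control clones, the control clone of pair 1 being the low one. Tyrobp, an adaptor for activating receptors of NK and myeloid cells, was below background on every array.

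**Figure D3:**
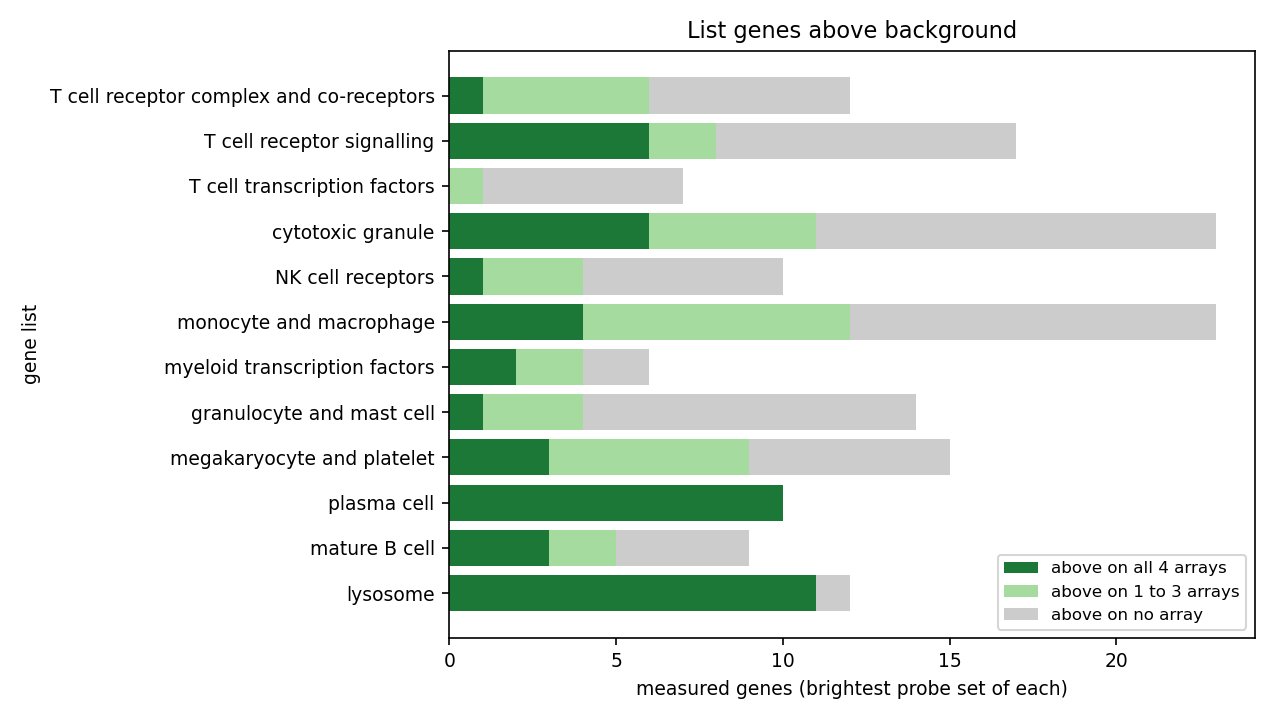
Number of measured genes in each list that were above background on all 4 arrays (dark green), on 1 to 3 arrays (light green) or on none (grey), each gene read at its brightest probe set. All 10 plasma cell genes and 11 of 12 lysosome genes were above background on all arrays, against 1 of 12 T cell receptor complex genes and 1 of 10 NK receptor genes.

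In the monocyte and macrophage list, 4 of 23 measured genes were above background on all arrays, Cd68, Csf1r and the lysosomal proteases Ctss and Ctsd. A further 8 were above it on some arrays and 11 on none. Of the 8, Siglec1, Csf2ra and Mrc1 were above background on 3 arrays, Fcgr1 on 2, and Adgre1, Msr1, Csf3r and Marco on 1. Itgam, the alpha chain of the macrophage integrin Mac-1, was below background on every array, with 21.1 and 25.9 in the AID-silenced clones, against 23.9 and 3.2 in the control clones. Lyz2, Fcgr3 and C1qa, a lysozyme, an Fc receptor and a complement chain of macrophages, were below background on every array too. In the lysosome list, which holds the compartment where CD68 resides, 11 of 12 measured genes were above background on all arrays. In the myeloid transcription factor list, Spi1, which encodes PU.1, had 1333 and 1453 in the AID-silenced clones, against 1508 and 1092 in the control clones. Cebpb, a bZIP factor of macrophages, had 3537 and 3441 in the AID-silenced clones, against 4920 and 5751 in the control clones (log2 difference -0.61 ± 0.20, SE, n = 2 per group, limma adjusted p = 0.9996). It was lower in both AID-silenced clones at its second probe set as well, by -0.69, and was the other of 2 above background on all arrays among 6 measured, and Cebpa was below background on every array.

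Marco, a scavenger receptor of macrophages, stood out in a single clone. Its brightest probe set (1449498_at) had 8.5 and 3.9 in the AID-silenced clones, against 1230 and 3.6 in the control clones, and the second (1458297_s_at) had 3.9 and 2.9, against 524 and 3.9. Both probe sets were above background only in the control clone of pair 1. Irf8, a transcription factor of monocytes, dendritic cells and B cells, had 18.9 and 13.0 in the AID-silenced clones, against 142 and 21.0 in the control clones, and its second probe set (1448452_at) had 12.0 and 5.5, against 132 and 3.3. It too was above background only in the control clone of pair 1, and Mrc1, the mannose receptor, was below background only there, at 27.6. Marco and Irf8 were too dim on average to be tested, and a single clone allows no test.

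Of the 118 other list genes, those above background on 1 array only numbered 1 and 2 in the AID-silenced clones of pairs 1 and 2, against 10 and 8 in the control clones. Over all genes the shares were 0.918% and 0.654% for the AID-silenced clones, against 3.36% and 2.2% for the control clones. The background value moved with these counts, being lower on the control arrays, and its part in them was not tested. With the 99th percentile as background, added after the data were seen, the counts were 0 and 0 in the AID-silenced clones, against 4 and 2 in the control clones, Marco and Irf8 remaining among the 4. Over all genes the shares were then 1.53% and 0.176% for the AID-silenced clones, against 0.583% and 1.21% for the control clones, so the higher shares of both control clones were not kept under this rule.

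**Figure D4:**
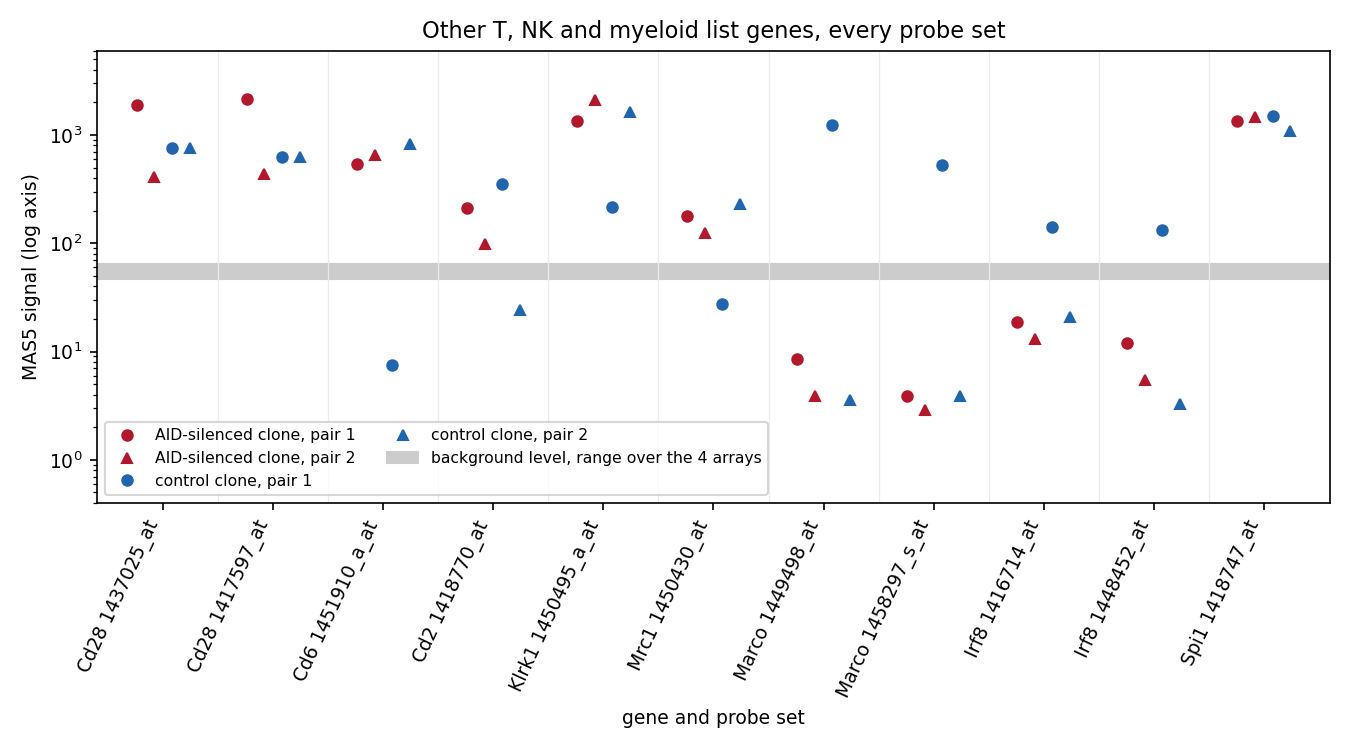
MAS5 signal on a log axis for every probe set of 8 list genes chosen after their values were seen, drawn like the plot of the members. For Marco and Irf8 the control clone of pair 1 alone lies above the grey background band (47.0 to 64.5), and for Cd6 and Mrc1 it alone lies below; Cd28, Klrk1 and Spi1 lie above it in all 4 clones.

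In the platelet list, 3 of 15 measured genes were above background on all arrays, Itga2b, Gp5 and Gp1bb. Gp5, a chain of the von Willebrand factor receptor, had 60.6 and 96.9 in the AID-silenced clones, against 135.5 and 74.7 in the control clones. Gp1bb, another chain of that receptor, had 59.6 and 67.6 in the AID-silenced clones, against 113 and 63.5 in the control clones, while its second probe set (1422977_at) was below background on every array. The lowest of these values lay just above background, the 59.6 and the 60.6 beside an array value of 59.3. Vwf, von Willebrand factor itself, was below background on every array.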

How the data were processed

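RNA of 4 J558 clones was measured on 1 array each. The values are linear intensities, which the authors deposited after MAS5 processing (per the submitters' processing notes), and the 2% trimmed mean of each array was checked to equal 500, so no further scaling was applied. Depth does not apply to arrays, and 2 clones a group limit the precision. The 64 control probe sets were left out and 45037 kept. Of all 45101 probe sets, the controls included, the platform annotation named 34958 by 1 symbol and 932 by several, and left 9211 unnamed. Of those with 1 symbol, 34754 matched a RefSeq gene table (GRCm38.p6, 0 symbols changed). The fit of AID-silenced against control clones used limma 3.58.1 in R 4.3.3 (with statmod 1.5.0), trended and robust, on log2(signal + 16), over the upper 0.5 of probe sets by mean log2 value, with Benjamini-Hochberg adjustment over all 22519. The step was tested on simulated data. The brightest probe set is that with the highest mean log2 value.

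The members and lists were chosen with earlier results of these data known. All members were named. The naming rule for each list was the 6 genes of highest mean signal and defining genes below background. Not every gene under this rule is named, and some genes outside it are, so the named list genes are a selection. The pair numbers come from the labels, and differences between pairs correlated across probe sets with Pearson r = 0.306 and Spearman rho = 0.336, the probe sets not being independent. Alternatives changed the normalisation, pseudocount (1, 64), filter, block, background rule and the clones included. The level of the silenced gene is not reported here. Promoter sequences are from RefSeq (GRCm38.p6), matched for 9 of the 10 genes. Figures were drawn with matplotlib 3.10.9.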

Additional observations from a re-analysis of the deposited data

How the results depend on the processing

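With 2 clones a group, precision is limited by their number. No probe set of these genes passed limma under any of the alternatives run. Over all probe sets the count of 2 called was 8 with the pair number as a replicate block and ranged from 2 to 143 when 1 clone was left out, at 143 when this was the control clone of pair 1 and 59 when it was that of pair 2. The cause was not tested. The count of member probe sets above background on all arrays was 5 to 7, and that of list genes, 45 of 155 measured, was 40 to 50, under the 90th and 99th percentiles, the highest bacterial control, the array median, quantile normalisation and with any 1 clone left out. Cd8a passed at its brightest probe set under the bacterial rule or without the AID-silenced clone of pair 1. Of 103 log2 differences listed for the 9 genes under the alternatives, 94 kept their direction and 9 turned. The filter and the block cannot change these estimates in a balanced design, so their values are among the 94 without being a check. When 1 clone at a time was left out, the log2 difference ranged from -0.75 to 0.22 for Gzma, from -0.53 to 0.02 for Prf1, from -0.93 to 0.09 for Cd8a, from -0.04 to 0.28 for Csf1r and from -0.46 to 0.09 for Cd68. Gzma turned when the AID-silenced clone of pair 2 (0.14) or control clone 1 (0.22) was left out, Csf1r when either of the same 2 was (-0.04 each), Cd68 without the AID-silenced clone of pair 2, Prf1 without the control clone of pair 2 and Cd8a without the AID-silenced clone of pair 1. With the mean of probe sets Prf1 was at 0.05 and Cd8a at 0.12. None of these was called, and the block changed no call among the members.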

Other observations

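The mature B cell list gave a split of its own. Blnk, the adaptor of B cell receptor signalling, had signals of 5834 and 9554 in the AID-silenced clones of pairs 1 and 2, against 5324 and 11125 in the control clones. Cd79b, a signalling chain of the B cell receptor, had 3188 and 2279 in the AID-silenced clones, against 2907 and 3638 in the control clones. Its partner chain Cd79a was below background on every array at its single probe set, with 17.6 and 25.4 in the AID-silenced clones, against 2.6 and 3.2 in the control clones. Of 9 measured genes of this list, 3 were above background on all arrays at their brightest probe set. The third was Ms4a1, which encodes CD20, with 89.3 and 391 in the AID-silenced clones, against 160.0 and 59.6 in the control clones. Its second probe set (1450912_at) did not agree, with 1.2 and 117.4 in the AID-silenced clones, against 19.3 and 2.2 in the control clones. There only the AID-silenced clone of pair 2 was above background.

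Granulocyte and mast cell genes were mostly below background, with 1 of 14 measured above it on all arrays. This was Mpo, myeloperoxidase, with 145 and 261 in the AID-silenced clones, against 62.2 and 653 in the control clones. Its range between the control clones held the values of both AID-silenced clones (log2 difference -0.11 ± 1.00, SE, n = 2 per group, limma adjusted p = 0.9996).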
